A study of Mus musculus with 7 samples.

Results

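Cytosolic ribosomal protein genes were examined in CD4+ T cells from mice without functional regulatory T cells, with and without interleukin-2. They were taken by symbol: Rpl or Rps followed by a number, with an optional last letter x, y, a or l, together with Rplp0, Rplp1, Rplp2 and Rpsa, leaving out the Rps6k kinases and pseudogenes. The array annotation names 74 such genes, and 46 of them have a probe set that names them alone, among 18193 genes that have one. Of these 46, 24 encode proteins of the large and 22 of the small ribosomal subunit, and each was read from the brightest probe set naming it alone. The other 28, among them Rpl3, Rpl5, Rplp1, Rps12 and Rps23, are named only by probe sets that also name other genes, often their own pseudogenes, and were looked at separately.

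The study measured RNA on 7 Affymetrix mouse arrays in 3 groups, all from male mice aged 3 weeks. Sf.Il2-/- mice (3 arrays) combine the Scurfy mutation with an Il2 null allele (B6.129P2-Il2tm1Hor/J), Sf mice (3 arrays) carry the Scurfy mutation alone (B6.Cg-Foxp3sf/J), and B6 is C57BL/6 (1 array, from nodes of 2 mice pooled). The Scurfy allele disrupts Foxp3, on which regulatory T cells depend, so both mutant groups lack functional regulatory T cells and differ from each other by Il2. Cells came from peripheral lymph nodes, were depleted of cells bearing B220, CD8, CD11b, CD11c or NK1.1 and were then sorted for CD3 and CD4. Setting Sf.Il2-/- against Sf addresses what Il2 contributes when these cells are missing, and both comparisons with B6 rest on 1 array, which the test assumes to vary like the others.

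A cytosolic ribosome joins a small subunit, which reads the messenger RNA, to a large subunit, which forms the peptide bonds. Each subunit is ribosomal RNA with a set of proteins made in similar amounts. The messenger RNAs of these proteins are among the most abundant in a cell, and most start with a run of pyrimidines, through which their translation follows growth signals such as mTOR. T cells enlarge and make more ribosomes when they are activated, and interleukin-2 is one of the signals that drive their growth.

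The stretches around the annotated transcription start of 6 of these genes are shown. Rpl41, Rpl12, Rps27 and Rpl27a stand for members whose dim probe set differed from B6 while a bright one differed little, and Rpsa and Rplp0 for bright members with B6 lowest. They do not include every member with a difference of that size. The genes and the letters searched were chosen after the values were seen. Each sequence runs 5′ to 3′ from 90 bases before the start through 30 bases from it (RefSeq, GRCm38.p6).
Capitals mark, on either strand, CCGGAAG (a core bound by ETS factors), AAGATGG (a core bound by YY1) or TATAAA. On the sense strand they also mark a run of at least 8 C or T that begins within 20 bases of the start.
Rpl41, chr10:128549139-128549258, minus strand: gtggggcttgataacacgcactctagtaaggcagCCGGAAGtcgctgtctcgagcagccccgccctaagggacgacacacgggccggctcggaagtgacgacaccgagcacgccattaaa
Rpl12, chr2:32961622-32961741, plus strand: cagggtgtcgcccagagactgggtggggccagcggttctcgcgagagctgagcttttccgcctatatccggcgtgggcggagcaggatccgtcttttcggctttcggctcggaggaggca
Rps27, chr3:90213619-90213738, minus strand: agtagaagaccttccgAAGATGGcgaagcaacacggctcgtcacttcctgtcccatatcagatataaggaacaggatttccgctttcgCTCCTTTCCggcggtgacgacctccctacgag
Rpl27a, chr7:109519105-109519224, plus strand: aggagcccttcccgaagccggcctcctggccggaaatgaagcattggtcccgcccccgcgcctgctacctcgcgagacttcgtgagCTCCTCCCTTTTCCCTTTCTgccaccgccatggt
Rpsa, chr9:120127676-120127795, plus strand: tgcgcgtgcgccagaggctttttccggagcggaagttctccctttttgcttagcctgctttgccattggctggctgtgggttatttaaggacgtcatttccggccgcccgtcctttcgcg
Rplp0, chr5:115559377-115559496, plus strand: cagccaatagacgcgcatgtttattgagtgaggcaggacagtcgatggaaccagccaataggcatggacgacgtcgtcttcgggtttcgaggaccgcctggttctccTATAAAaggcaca

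Of the 46 genes, 40 have such a window in the table, in 48 windows of 300 bases (250 before the start and 50 from it). CCGGAAG stood in 41.7% of these windows, against 8.86% of the 32851 windows of all genes. AAGATGG stood in 14.6%, against 6.34%. The run of 8 pyrimidines near the start stood in 43.8%, against 18.2%, and TATAAA in 10.4%, against 13.6%. A match is a description of the letters, and the annotated start need not be the one used in these cells.

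All values below are log2(intensity + 1). The intensity of one probe set cannot be set against that of another as an amount of transcript, because probes differ in how brightly they bind. Within each array the ribosomal protein probe sets sat near the top of the scale: 33 of the 46 had a mean of at least 12 over the 7 arrays, between 12.39 and 13.44, at or above the 99.6th percentile of all 45037 probe sets. Another 2 lay between 10 and 12, 8 between 5 and 10, and 3 under 5. The highest value of any probe set on an array was 13.58 to 13.77 on 6 arrays and 14.82 on Sf.Il2-/- 1. The 33 bright members therefore lay within a narrow band under that top, and the range of a member over the 7 arrays was 0.07 to 0.49, with a median of 0.22.

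**Figure D1:**
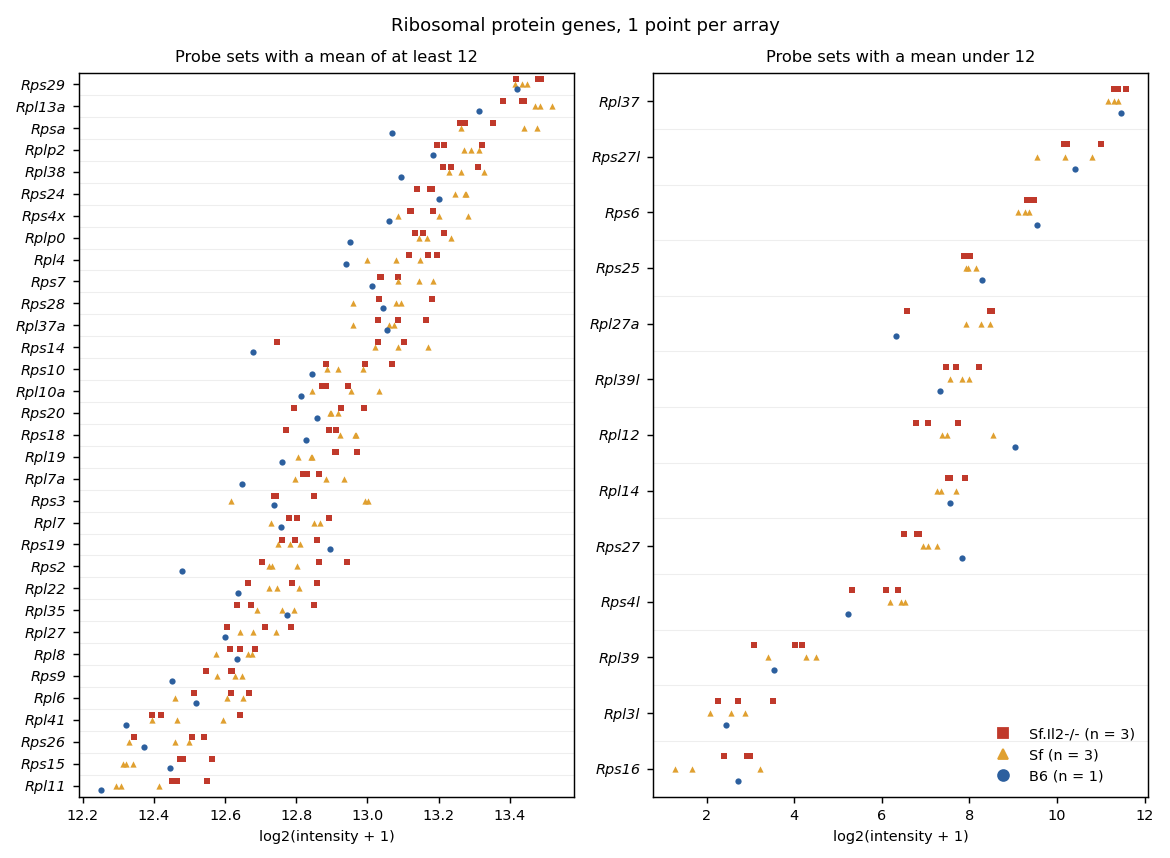
Each row is 1 ribosomal protein gene and each point 1 array, on the log2(intensity + 1) axis, with Sf.Il2-/- (squares), Sf (triangles) and B6 (circle) stacked from top to bottom within a row. The left panel holds the 33 genes with a mean of at least 12, which vary by at most 0.49, and the right panel the other 13, which spread over up to 2.26.

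The median of the members was 12.75, 12.73 and 12.79 in the 3 Sf.Il2-/- arrays, 12.73, 12.78 and 12.74 in the 3 Sf arrays and 12.64 in the B6 array. Both mutant groups overlapped each other, and the B6 array was the lowest of the 7. The summed intensity of the members was 260586 to 268132 in Sf.Il2-/- arrays, 261375 to 271802 in Sf arrays and 247709 in the B6 array. In bulk RNA, fewer cells of a type and less RNA per cell cannot be told apart.

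No ribosomal protein gene passed the test in any comparison. The test was limma over the 11460 genes whose highest group mean was at least 5, called at a Benjamini-Hochberg adjusted p under 0.05, and 43 of the 46 members entered it. In Sf.Il2-/- v Sf 0 of 43 members were called, against 0.279% of all genes tested (32). In Sf v B6 0 of 43 were called, against 2.47% (283), and in Sf.Il2-/- v B6 0 of 43, against 2.69% (308). At an unadjusted p under 0.05, 0, 6 and 4 of the 43 members stood in these 3 comparisons in turn, against 7.92%, 22.5% and 18.6% of all genes. The 3 members that did not enter, Rpl39, Rpl3l (a form of Rpl3 found in muscle) and Rps16, had dim probe sets of their own, with means of 3.85, 2.64 and 2.46.

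Between Sf.Il2-/- and Sf the members were close to level. The median difference was 0.00, and 23 of 43 were above 0, against 62.2% of all genes, whose median was 0.08. This count depended on the scaling: it was 12 of 43 after quantile normalization and 34 of 43 after each array was centred on its median. Of the 33 bright members 18 were above 0 (median 0.00), and 29 of the 43 other tested genes with a mean of at least 12 (median 0.14). After quantile normalization these were 11 of 33 and 26 of 43 (medians -0.02 and 0.03). On the deposited scale the differences of the 33 bright members ran from -0.13 (Rps14) to 0.18 (Rps15). The outermost bounds of their 95% intervals were -0.38 and 0.39, which is at most 1.30-fold lower and 1.31-fold higher. On this intensity scale, larger changes lay outside the interval of the probe set read for a bright member. That interval does not bound the gene, as other probe sets naming it alone could differ by more. In a fit over all probe sets, a probe set of Rpl13a with a mean of 10.67 differed by 0.60 ± 0.17 (SE, limma adjusted p = 0.438). A dim probe set of Rpl41 differed by -0.66. A p that misses the threshold does not show that the groups are alike, and for the 10 dimmer members the intervals reached from -1.41 to 1.03.

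In both comparisons with B6 most members lay slightly above the B6 array. The median difference was 0.09 in Sf v B6 and 0.08 in Sf.Il2-/- v B6, while the medians of all genes were -0.25 and -0.14. In Sf v B6 31 of 43 members were above 0, against 34.7% of all genes, with 30 after quantile normalization and 23 after each array was centred on its median. In Sf.Il2-/- v B6 35 of 43 were above 0, against 39.7%, with 25 after quantile normalization and 35 after centring. Quantile normalization took the median of all genes to 0.03 and 0.06 in these 2 comparisons, and the distance of the members' median from it to 0.02 and -0.04, from 0.33 and 0.22 on the deposited scale. Both comparisons share the B6 array.

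For 22 of 43 members all 6 mutant arrays lay above the B6 array, against 14.7% of all genes. For 5, Rpl12, Rps19, Rps25, Rps27 and Rps6, all 6 lay below it, against 37.3%. Of these 5, all but Rps19 were read from a dim probe set with a much brighter shared one, where the mean difference was above 0 in both comparisons with B6 for Rps27 and Rps6, in Sf v B6 for Rpl12 and in Sf.Il2-/- v B6 for Rps25. Genes of like brightness give another point of reference. Of the 33 bright members 28 were above 0 in Sf v B6, with a median of 0.11, while of the other 43 tested genes with a mean of at least 12, 23 were above 0, with a median of 0.02. In Sf.Il2-/- v B6 30 of 33 bright members were above 0, with a median of 0.09, and 29 of these 43 other bright genes, with a median of 0.07. After quantile normalization 22 of 33 bright members and 18 of the 43 others were above 0 in Sf v B6 (medians 0.04 and -0.02), and 18 of 33 and 24 of 43 in Sf.Il2-/- v B6 (medians 0.01 and 0.03).

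**Figure D2:**
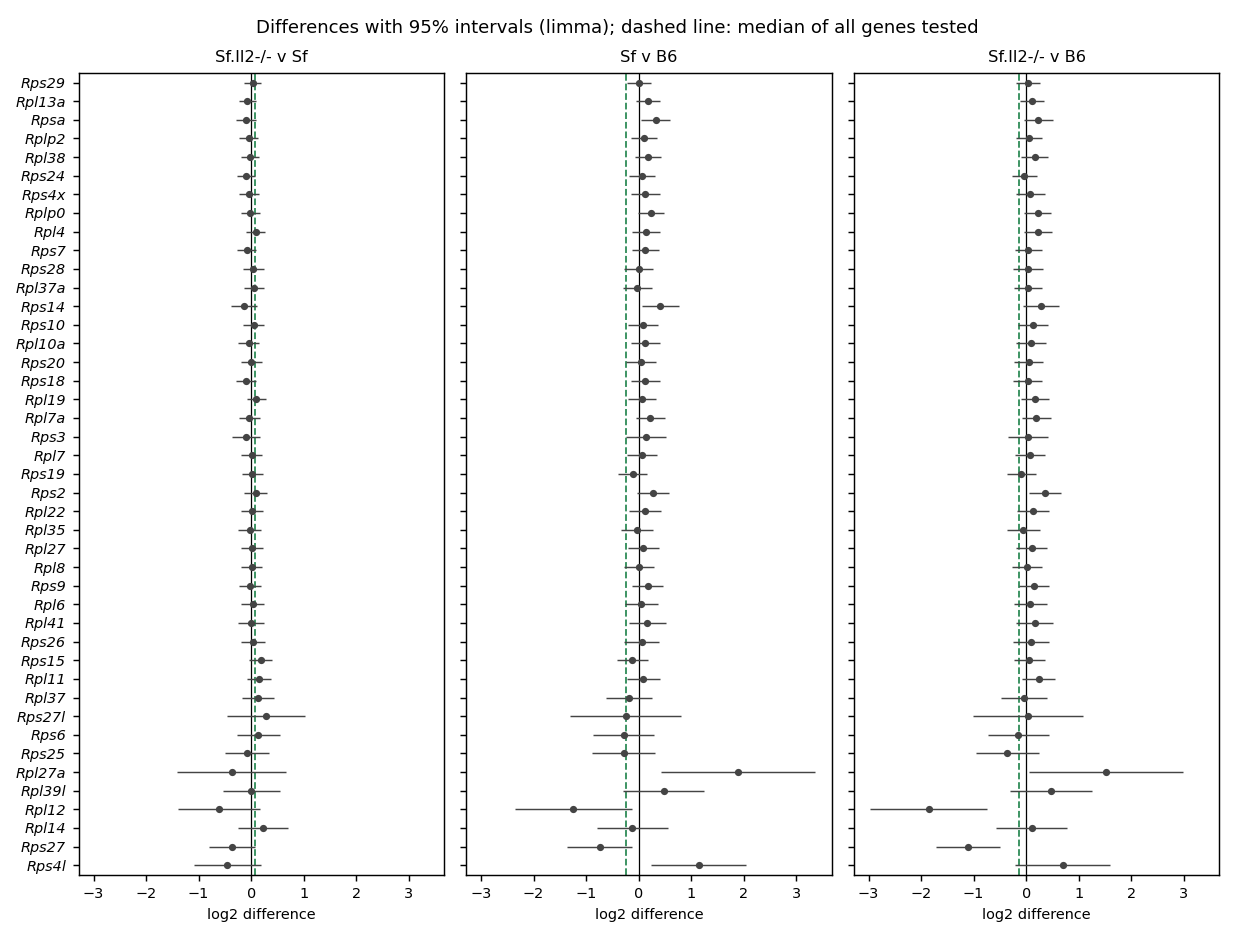
Each point is the log2 difference of 1 of the 43 tested ribosomal protein genes, with its 95% interval from limma, in Sf.Il2-/- v Sf, Sf v B6 and Sf.Il2-/- v B6. Solid lines mark 0 and dashed lines the median of all genes tested (0.08, -0.25 and -0.14), and the wide intervals at the bottom belong to the dim probe sets.

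The acidic stalk of the large subunit, which recruits the elongation factors, is made of Rplp0 and the proteins Rplp1 and Rplp2. Rplp0 stood at 13.21, 13.16 and 13.13 in Sf.Il2-/- arrays, 13.17, 13.24 and 13.14 in Sf arrays and 12.95 in the B6 array. All 6 mutant arrays were higher than B6, by 0.22 in Sf.Il2-/- and 0.23 in Sf (SE 0.11 each, limma adjusted p = 0.342 and 0.256), and did not pass. Rplp2 stood at 13.20, 13.22 and 13.32 in Sf.Il2-/- arrays, 13.27, 13.29 and 13.31 in Sf arrays and 13.18 in the B6 array, so here too B6 was lowest, by 0.06 and 0.11.

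Among the small subunit proteins, Rpsa, also known as the laminin receptor precursor, stood at 13.35, 13.28 and 13.26 in Sf.Il2-/- arrays, 13.44, 13.48 and 13.26 in Sf arrays and 13.07 in the B6 array. The difference in Sf v B6 was 0.32 ± 0.12 (SE, limma adjusted p = 0.165). Rps14 stood at 13.10, 13.03 and 12.75 in Sf.Il2-/- arrays, 13.09, 13.17 and 13.02 in Sf arrays and 12.68 in the B6 array. It had the largest difference of the bright members in Sf v B6, 0.41 ± 0.16 (SE, limma adjusted p = 0.164), and its Sf.Il2-/- arrays spread from near B6 to the level of Sf. Rps2 had the largest of the bright members in Sf.Il2-/- v B6: 12.94, 12.86 and 12.70 in Sf.Il2-/- arrays, against 12.48 in the B6 array, a difference of 0.36 ± 0.14 (SE, limma adjusted p = 0.211). None of these 3 genes passed over all 7 arrays, and in each the B6 array was the lowest of the 7. Without Sf 3, Rpsa passed in Sf v B6, at 0.39 (limma adjusted p = 0.0254). That setting called 3523 of all genes in Sf v B6, against 283 in the main fit.

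Rps6, the subunit protein phosphorylated by the S6 kinases downstream of mTOR, stood at 9.31, 9.37 and 9.48 in Sf.Il2-/- arrays, 9.27, 9.11 and 9.37 in Sf arrays and 9.54 in the B6 array at its own probe set. Rps19, whose loss in people causes Diamond-Blackfan anaemia, stood at 12.76 to 12.86 in Sf.Il2-/- arrays, 12.75 to 12.81 in Sf arrays and 12.90 in the B6 array, differences from B6 of -0.09 and -0.12. Both were below B6 in all 6 mutant arrays by little, with limma adjusted p from 0.514 to 0.805. For Rps6 the direction turned at its bright shared probe set, 0.09 above B6 in Sf.Il2-/- and 0.17 in Sf, and after quantile normalization, 0.15 and 0.22 above.

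Of the large subunit proteins with a role outside the ribosome, Rpl11, which together with Rpl5 and the smallest ribosomal RNA restrains Mdm2, stood at 12.46, 12.55 and 12.45 in Sf.Il2-/- arrays, 12.29, 12.31 and 12.42 in Sf arrays and 12.25 in the B6 array. The 3 Sf.Il2-/- arrays were above all 3 Sf arrays by 0.15 ± 0.10 (SE, limma adjusted p = 0.818). Rpl11, Rpl19 and Rps15 were the members of 43 with this order, against 8.39% of all genes. Rpl13a, Rps18, Rps24, Rps27 and Rps7 had the opposite order, against 3.72%. For Rpl13a the order depended on the probe set. At a less bright one that also names it alone, it stood at 10.98, 10.85 and 11.06 in Sf.Il2-/- arrays. The Sf arrays stood there at 10.36, 10.07 and 10.64 (limma adjusted p = 0.438). Rps15 was the member with the lowest p in Sf.Il2-/- v Sf, at 12.47, 12.48 and 12.56 in Sf.Il2-/- arrays and 12.34, 12.31 and 12.32 in Sf arrays (limma adjusted p = 0.722), with the B6 array between them at 12.45. Rpl22, which in the mouse is needed for the development of alpha-beta T cells, differed by 0.01 in Sf.Il2-/- v Sf, and Rpl38, needed in the mouse for translation of Hox messenger RNAs, by -0.02.

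Several members are close copies of another. Rps4l, a paralog of Rps4x, was read from a dim probe set, at 6.10, 5.32 and 6.38 in Sf.Il2-/- arrays, 6.18, 6.44 and 6.54 in Sf arrays and 5.24 in the B6 array. Its difference in Sf v B6 was 1.15 ± 0.40 (SE, limma adjusted p = 0.145), and 1 Sf.Il2-/- array lay next to B6. Rps4x itself differed by 0.13 in Sf v B6 and 0.08 in Sf.Il2-/- v B6. Rps27l, a target of p53, stood at 10.16 to 11.00 in Sf.Il2-/- arrays, 9.53 to 10.81 in Sf arrays and 10.42 in the B6 array, with B6 inside both ranges. Rpl39l stood at 7.47 to 8.23 in Sf.Il2-/- arrays, 7.55 to 7.99 in Sf arrays and 7.32 in the B6 array.

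The widest differences came from members whose own probe set was dim. Rpl27a stood at 8.47, 8.51 and 6.57 in Sf.Il2-/- arrays, 7.92, 8.48 and 8.27 in Sf arrays and 6.33 in the B6 array. Of the 6 mutant arrays 5 were far above B6 and 1 Sf.Il2-/- array was near it, and the differences, 1.52 ± 0.66 in Sf.Il2-/- v B6 and 1.89 ± 0.66 in Sf v B6, did not pass (SE, limma adjusted p = 0.255 and 0.142). Without Sf.Il2-/- 3, the array near B6, both passed, at 2.16 and 1.89 (limma adjusted p = 0.0216 and 0.0282). Leaving out the mutant array nearest to B6 raises the first difference and narrows the spread by construction, so these calls are no support for Rpl27a. All genes called in that setting were 184 in Sf.Il2-/- v B6 and 221 in Sf v B6, against 308 and 283 in the main fit.

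Rpl12 stood at 6.79, 7.74 and 7.05 in Sf.Il2-/- arrays, 7.49, 7.38 and 8.54 in Sf arrays and 9.05 in the B6 array. B6 was highest and Sf 3 next to it, and the difference was -1.86 ± 0.49 in Sf.Il2-/- v B6 and -1.24 ± 0.49 in Sf v B6 (SE, limma adjusted p = 0.091 and 0.183). Without Sf 3 Rpl12 passed in both, at -1.86 and -1.61 (limma adjusted p = 0.0100 and 0.0126), and with the replicate number as a block in Sf.Il2-/- v B6 alone, at -2.22 (limma adjusted p = 0.0313). Leaving out Sf 3 raised the count of all genes called to 1541 in Sf.Il2-/- v B6 and 3523 in Sf v B6, from 308 and 283.

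Rps27 stood at 6.51, 6.80 and 6.84 in Sf.Il2-/- arrays, 6.95, 7.05 and 7.25 in Sf arrays and 7.83 in the B6 array, so the 3 groups did not overlap. The differences were -1.11 ± 0.28 in Sf.Il2-/- v B6 and -0.74 ± 0.28 in Sf v B6 (SE, limma adjusted p = 0.0739 and 0.161), the first being the lowest adjusted p of any member. With the replicate block it passed in both, at -1.28 and -0.91 (limma adjusted p = 0.0206 and 0.0374), and without Sf 3 also, at -1.11 and -0.82 (0.0162 and 0.0343). With the array set as a block it passed in Sf.Il2-/- v B6, at -0.96, and not in Sf v B6, at -0.60 (limma adjusted p = 0.0385 and 0.152). All genes called rose to 1212 in Sf.Il2-/- v B6 and 1880 in Sf v B6 with the replicate block, and to 1541 and 3523 without Sf 3. In the same order they were 721 and 605 with the array set as a block, against 308 and 283 in the main fit. The replicate block ties the B6 array, numbered 1 in its title, to the other arrays of that number, and with 1 B6 array that tie could not be checked.

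These 3 genes each have a much brighter probe set that also names other genes, and there the differences were small. For Rpl27a it stood at 13.17, 13.03 and 13.12 in Sf.Il2-/- arrays, 13.24, 13.24 and 13.05 in Sf arrays and 13.08 in the B6 array. For Rpl12 it differed by -0.02 in Sf.Il2-/- v B6 and 0.09 in Sf v B6, and for Rps27 by 0.03 and 0.07. In all, 8 members (Rpl12, Rpl14, Rpl27a, Rpl39, Rps16, Rps25, Rps27 and Rps6) were read from a probe set at least 2 log2 units below a shared one, whose means were 12.30 to 13.43.

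Rpl41, which encodes the smallest ribosomal protein, has bright and dim probe sets that all name it alone. At its brightest it stood at 12.39, 12.42 and 12.64 in Sf.Il2-/- arrays, 12.39, 12.46 and 12.60 in Sf arrays and 12.32 in the B6 array, with B6 lowest by 0.16 against both groups. At one of its dim probe sets it stood at 7.06, 7.11 and 7.51 in Sf.Il2-/- arrays, 7.68, 7.81 and 8.18 in Sf arrays and 9.76 in the B6 array. There the B6 array was highest by far, and the 3 groups did not overlap.

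In a fit over all 24435 probe sets that passed the same filter, 194 of which name a member, this dim probe set was lower in Sf.Il2-/- v B6 by -2.53 ± 0.33 and in Sf v B6 by -1.87 ± 0.33 (SE, limma adjusted p = 0.0121 and 0.0367). A second dim one was lower by -2.49 and -1.88 (limma adjusted p = 0.0150 and 0.0386). These were the 2 of 194 probe sets called in each comparison with B6, against 1.53% of all probe sets in Sf.Il2-/- v B6 and 1.3% in Sf v B6. In Sf.Il2-/- v Sf 0 of 194 were called, against 0.0982% of all probe sets. At an unadjusted p under 0.05 there were 6 of 194 in Sf.Il2-/- v Sf and 18 in each comparison with B6. The share of all probe sets at that p was not counted. Of all genes in the main fit it was 7.92%, 22.5% in Sf v B6 and 18.6% in Sf.Il2-/- v B6. In Sf.Il2-/- v Sf the first dim probe set of Rpl41 differed by -0.66 (limma adjusted p = 0.534). The sign of the Rpl41 difference from B6 thus depended on which of its probe sets was read.

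**Figure D3:**
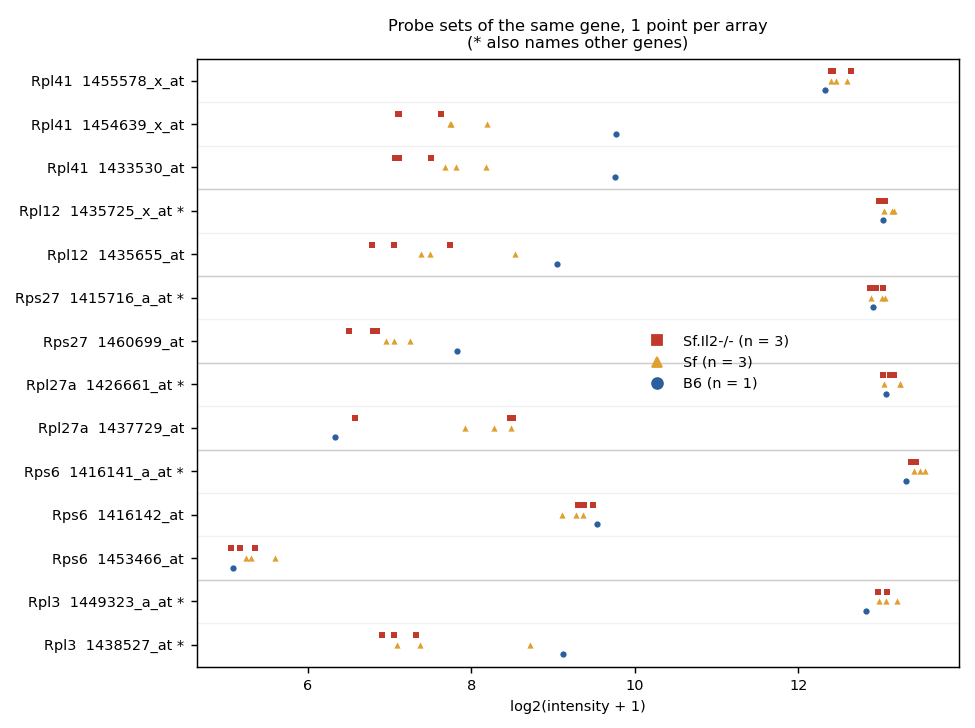
Each row is 1 probe set of Rpl41, Rpl12, Rps27, Rpl27a, Rps6 or Rpl3, named by gene and probe set, and each point 1 array on the log2(intensity + 1) axis, with Sf.Il2-/- (squares), Sf (triangles) and B6 (circle) stacked from top to bottom. The bright probe sets of a gene, above 12, hold all arrays close together, while the dim ones spread, with B6 highest for Rpl41, Rpl12, Rps27 and Rpl3 and lowest for Rpl27a; an asterisk marks probe sets that also name other genes.

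The 194 probe sets were also set beside all other tested probe sets of like brightness. Of the 139 with a mean of at least 12, 77% were above 0 in Sf v B6 (median 0.08) and 79.9% in Sf.Il2-/- v B6 (median 0.06), against 52% (median 0.02) and 72.4% (median 0.10) of the 98 others. Of the 12 with a mean from 10 to 12, 91.7% were below 0 in Sf v B6 (median -0.20) and 58.3% in Sf.Il2-/- v B6 (median -0.04). Among the 1402 others of that band the shares were 90.2% (median -0.56) and 68.2% (median -0.18). Of the 42 with a mean from 5 to 10, 69% were below 0 in Sf v B6 (median -0.27) and 76.2% in Sf.Il2-/- v B6 (median -0.39), against 65.1% (median -0.23) and 63.1% (median -0.18) of the 20672 others. In Sf v B6 the dim probe sets of members were thus close to the share of all dim probe sets. Rpl3, which reaches toward the peptidyl transferase centre, has both kinds, each shared with other genes. Its dim probe set stood at 6.90, 7.05 and 7.32 in Sf.Il2-/- arrays, 7.09, 7.38 and 8.71 in Sf arrays and 9.12 in the B6 array, and its bright one was 0.21 and 0.26 above B6. A dim probe set of Rps3, a protein of the small subunit that also acts in DNA repair, went the other way, at 8.03, 8.47 and 7.86 in Sf.Il2-/- arrays, 8.28, 8.47 and 8.57 in Sf arrays and 7.16 in the B6 array. None of the Rpl3 and Rps3 differences passed.

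**Figure D4:**
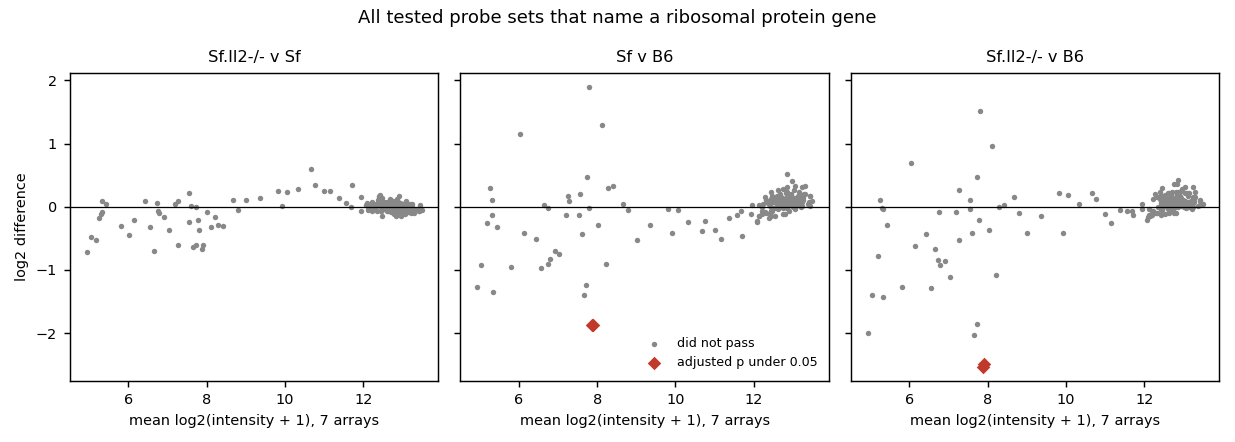
Each point is 1 of the 194 tested probe sets that name a ribosomal protein gene, by its mean log2(intensity + 1) over the 7 arrays and its log2 difference in Sf.Il2-/- v Sf, Sf v B6 and Sf.Il2-/- v B6. The cluster above 12 sits close to 0, the dim probe sets spread widely, with 69% below 0 in Sf v B6 against 65.1% of all other probe sets from 5 to 10, and the 2 diamonds in each comparison with B6, nearly on top of each other, are the dim probe sets of Rpl41.

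When each gene was read from its brightest probe set, shared or not, 71 members entered the test, and 0 were called in any comparison, against 0.279% of all genes in Sf.Il2-/- v Sf, 2.39% in Sf v B6 and 2.65% in Sf.Il2-/- v B6. The medians were -0.02 in Sf.Il2-/- v Sf, 0.09 in Sf v B6 and 0.08 in Sf.Il2-/- v B6. In the same order 32, 60 and 62 of 71 were above 0, against 62.2%, 34.9% and 39.9% of all genes. This fit was made on the deposited scale alone, and both comparisons with B6 share its single array. At an unadjusted p under 0.05 there were 0, 8 and 4 members, the 8 and the 4 all above B6, against 8.11%, 22.6% and 18.5% of all genes in that fit. The member nearest to the threshold was Rpl26, which in people binds p53 messenger RNA, at 0.31 in both comparisons with B6 (limma adjusted p = 0.125 for Sf.Il2-/- and 0.100 for Sf). Rpl5 differed from B6 by 0.07 in Sf.Il2-/- and 0.14 in Sf, and Rplp1 by 0.08 and 0.05. Outside the symbol rule, Fau, which encodes a small subunit protein fused to a ubiquitin-like one, differed by 0.05, 0.05 and 0.10 in Sf.Il2-/- v Sf, Sf v B6 and Sf.Il2-/- v B6. Rps3a1, looked up after the values were seen, differed by 0.04, 0.02 and 0.06.

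Genes that act with the ribosomal proteins were read from lists. No member of the lists of mitochondrial ribosomal proteins (76 tested), initiation factors (34), elongation and termination factors (10), ribosome biogenesis (87) or other messenger RNAs that start with pyrimidines (18) passed in any comparison. At an unadjusted p under 0.05 in Sf.Il2-/- v Sf there were 4 of the mitochondrial ribosomal proteins, 7 initiation factors, 2 elongation and termination factors, 5 biogenesis genes and 4 of the others. In Sf v B6 there were 5, 11, 0, 29 and 3 in the same order, and in Sf.Il2-/- v B6 4, 2, 1, 16 and 0. The shares of all genes at that p were 7.92%, 22.5% and 18.6% in these 3 comparisons. In Sf.Il2-/- v Sf the mitochondrial ribosomal proteins, which serve translation inside mitochondria, had a median of 0.23, with 74 of 76 above 0, and 61 of 76 after quantile normalization, against 62.2% of all genes on the deposited scale. The initiation factors, which load the small subunit onto messenger RNA, had a median of 0.33, with 31 of 34 above 0 and 20 of 34 after quantile normalization. All genes had a median of 0.08, and 55.4% of them were above 0 after quantile normalization. Of all other tested probe sets with a mean from 10 to 12, 94.2% were above 0 on the deposited scale (median 0.38). Whether these lists follow brightness was not tested. Eif4a1, the helicase of the cap-binding complex, stood at 11.54, 11.49 and 11.52 in Sf.Il2-/- arrays, 10.65, 10.22 and 11.20 in Sf arrays and 11.59 in the B6 array (0.82 ± 0.22 in Sf.Il2-/- v Sf, SE, limma adjusted p = 0.354). Its Sf.Il2-/- arrays were close to B6 and above all 3 Sf arrays.

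Against B6 the biogenesis genes, which assemble ribosomal RNA and protein in the nucleolus, had medians of -0.40 in Sf.Il2-/- and -0.53 in Sf, and the initiation factors -0.19 and -0.54. The medians of all genes were -0.14 and -0.25, and those of all other probe sets with a mean from 10 to 12 were -0.18 and -0.56. After quantile normalization the medians were -0.12 in both comparisons for biogenesis, and 0.06 and -0.03 for the initiation factors. For all genes they were then 0.06 and 0.03. Polr1a, the largest subunit of RNA polymerase I, stood at 7.07, 7.34 and 7.28 in Sf.Il2-/- arrays, 7.31, 7.32 and 7.73 in Sf arrays and 8.29 in the B6 array, with all 6 mutant arrays lower (-1.06 ± 0.29 in Sf.Il2-/- v B6, SE, limma adjusted p = 0.098). Of the regulators of ribosomal protein messenger RNAs and of S6 signalling, 2 of 22 passed in Sf v B6 and 1 of 22 in Sf.Il2-/- v B6. The shares of all genes called there were 2.47% and 2.69%. In Sf.Il2-/- v Sf 0 of 22 passed, against 0.279%. Sesn1, which encodes sestrin 1, an inhibitor of mTOR complex 1, stood at 7.10, 7.31 and 7.84 in Sf.Il2-/- arrays, 7.12, 6.90 and 7.86 in Sf arrays and 10.39 in the B6 array. It was lower than in B6 by -2.98 ± 0.42 in Sf.Il2-/- and -3.10 ± 0.42 in Sf (SE, limma adjusted p = 0.0103 and 0.00816). Max, the partner of Myc on DNA, was lower in Sf v B6 by -1.68 ± 0.31 (SE, limma adjusted p = 0.025).

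**Figure D5:**
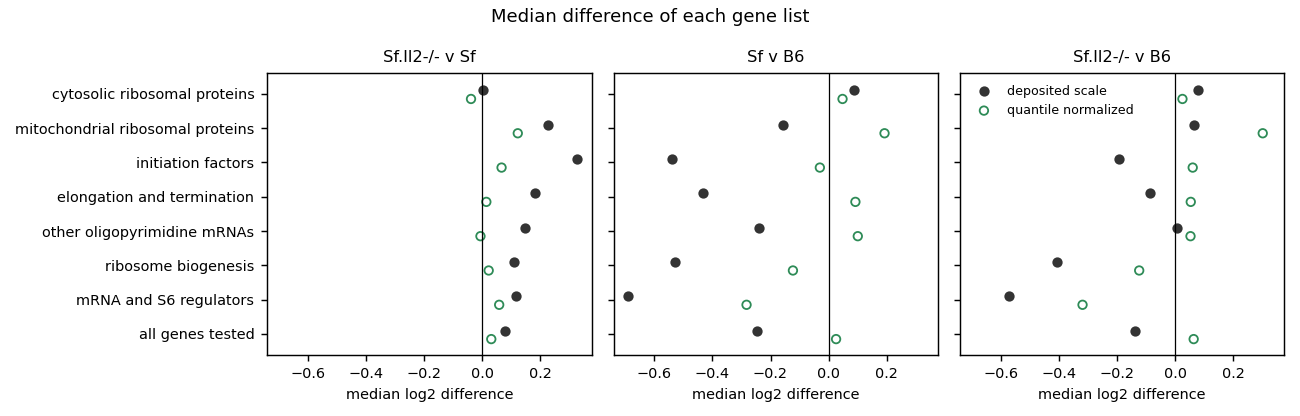
Each row is 1 gene list and the horizontal axis its median log2 difference in Sf.Il2-/- v Sf, Sf v B6 and Sf.Il2-/- v B6, with filled points on the deposited scale and open points after quantile normalization. The cytosolic ribosomal proteins stay between -0.04 and 0.09 on both scales. The initiation factors, elongation and termination factors, biogenesis genes and regulators lie below 0 in both comparisons with B6 on the deposited scale, as do all genes tested.

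Markers of cell state moved with the comparisons with B6. The summed intensity of 10 genes of naive and quiescent T cells was 10698 to 14566 in Sf.Il2-/- arrays, 10901 to 13455 in Sf arrays and 30632 in the B6 array. That of 12 genes of activated T cells was 16718 to 18228 in Sf.Il2-/- arrays, 15538 to 21169 in Sf arrays and 7779 in the B6 array. Of these 12, 11 were above B6 in Sf and 10 in Sf.Il2-/-. In Sf.Il2-/- v B6 6 were called higher and 1 lower, against 2.69% of all genes called. In Sf.Il2-/- v Sf 5 were above 0 and 7 below, with 1 called lower, against 0.279%. Of cells that the depletion should remove, 7 of 8 B cell markers were measured and summed to 1926 to 2172 in Sf.Il2-/- arrays, 975 to 1774 in Sf arrays and 3077 in the B6 array. Single markers did not all follow that sum: of 3 that entered the test, 2 were above B6 in Sf and 1 in Sf.Il2-/-. The 3 of 4 NK cell markers measured summed to 1474 to 2541 in Sf.Il2-/- arrays, 633 to 1588 in Sf arrays and 302 in the B6 array. The 2 of them tested were above B6 in both mutant groups, while in Sf.Il2-/- v Sf 1 was above 0 and 1 below. Markers of neutrophils summed to 638.54 in Sf.Il2-/- 2 and 440.76 in Sf 1, against 217 to 304 in the other 5 arrays. Their part in the values above was not tested. Without those 2 arrays 1 member of 43, Rpl27a, passed in Sf v B6 and 1, Rpl12, in Sf.Il2-/- v B6. All genes called were then 282 and 288 in these comparisons, against 283 and 308 in the main fit. The CD4 T cell markers summed to 18400 to 20443 in Sf.Il2-/- arrays, 10882 to 16110 in Sf arrays and 22376 in the B6 array.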

How the data were processed

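RNA of sorted CD4+ T cells was measured on 7 arrays. The deposited table holds the authors' intensity on a linear scale for 45037 probe sets, and the submitters' processing notes list GCRMA and GCOS. The role and version of each is not given in the sources used here. Groups were taken from the labels. Symbols came from the platform annotation, where 34945 probe sets name 1 gene, 932 several and 9160 none.

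Values were taken as log2(intensity + 1), and fold changes are on that scale. Each gene was read from its brightest probe set naming it alone, and 11460 genes with a highest group mean of at least 5 were tested with limma 3.58.1 in R 4.3.3 (lmFit, eBayes with an intensity trend). A single fit of 3 group means covered the 7 arrays (4 residual degrees of freedom, 9.57 in total), with Benjamini-Hochberg adjustment at 0.05 and 95% intervals. The fit was tested on simulated data. The labels do not say beyond the 2 pooled B6 mice which animals an array came from, so p-values measure the spread between these arrays. Python 3.11.15 with matplotlib 3.10.9 made the figures.

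The members and lists were chosen with earlier results of these data known. The named genes were, for each comparison and direction, the 5 members with the lowest unadjusted p where fewer passed, a set of members with known roles, and per list the genes past the threshold or the 1 with the lowest p. Rpl3, Rps3, Rpl26 and Rps3a1 were named after their values were seen, as were members that stand in a count.

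The titles number the replicates. Deviations from the group means correlated by 0.301, 0.211 and 0.505 between mutant arrays of the same number. These were all over 0.1, but so were 0.333 (Sf.Il2-/- 1 with Sf 2) and 0.111 (Sf.Il2-/- 2 with Sf 1) for different numbers. As 0.333 lies above 0.301 and 0.211, the check cannot show that the numbers pair the mutant arrays. B6, a single array, could not enter it. A fit with the replicate block was run beside the main one, as an alternative. Array sets 1 (Sf.Il2-/- 1, Sf.Il2-/- 2, Sf 1, Sf 2) and 2 (Sf.Il2-/- 3, Sf 3, B6) were read from correlations of 14762 dim probe sets. The lowest correlation within a set was 0.553 and the highest between sets 0.554, so the division is uncertain. Alternatives were other filters, scalings, pseudocount, probe set choices, no trend, the blocks, the mutant arrays alone and leaving out each replicate. Promoter windows came from RefSeq, GRCm38.p6, matched by symbol.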

Additional observations from a re-analysis of the deposited data

How the results depend on the processing

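No member passed the test in the main setting, and the counts of members called and their medians were computed under each alternative. The members' median was 0.00 in Sf.Il2-/- v Sf, 0.09 in Sf v B6 and 0.08 in Sf.Il2-/- v B6, and its spread between replicates was 0.03. Of the counts and medians, 148 kept within that spread or within 1.5 times the main count, and 21 did not. The median was -0.039, 0.048 and 0.025 in these 3 comparisons after quantile normalization. After centring it was 0.0902 in Sf.Il2-/- v Sf. In Sf v B6 it was 0.017 after centring and 0.0065 with a gene's probe sets averaged, and within array set 2 it was 0.037 for Sf.Il2-/- v Sf, and 0.12 for Sf.Il2-/- v B6. When each replicate was left out in turn it ran from -0.015 to 0.0074 in Sf.Il2-/- v Sf, from 0.082 to 0.11 in Sf v B6 and from 0.062 to 0.097 in Sf.Il2-/- v B6.

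Calls appeared under some settings, and the cause was not tested. Without _x_at probe sets 1 member of 43, Rpl41, was lower in Sf v B6 and 1, Rpl41, in Sf.Il2-/- v B6. All genes called there were 263 and 278. With a gene's probe sets averaged 1, Rpl41, was lower in Sf.Il2-/- v B6, where 208 of all genes were called. With the replicate block 1 member, Rps27, was lower in Sf v B6 and 2, Rpl12 and Rps27, in Sf.Il2-/- v B6, while the genes called rose to 1880 and 1212, and no other call of a member changed under the block. With the array set as a block 1, Rps27, was lower in Sf.Il2-/- v B6, where 721 of all genes were called. Leaving out single replicates gave 0 to 1 member higher in both comparisons with B6 (Rpsa without Sf 3, in Sf v B6, and Rpl27a without Sf.Il2-/- 3) and 0 to 2 lower (Rpl12 and Rps27 without Sf 3). All genes called without Sf 3 rose to 3523 in Sf v B6 and 1541 in Sf.Il2-/- v B6, from 283 and 308. Without Sf.Il2-/- 3 they were 221 and 184. Without Sf 1 and Sf.Il2-/- 2, a setting chosen after seeing the data, 1, Rpl27a, was higher in Sf v B6 and 1, Rpl12, lower in Sf.Il2-/- v B6. All genes called there were 282 and 288.

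Of 1416 values of the 24 named members under alternatives, 83 changed sign against the main value. After quantile normalization these were, in Sf.Il2-/- v Sf, Rpl22 (-0.016), Rpl38 (0.0011), Rpl39l (-0.052), Rpl41 (-0.069), Rplp0 (0.004), Rps19 (-0.0009), Rps27l (-0.075) and Rps6 (-0.066). They were Rpl14 (0.14), Rpl19 (-0.0082), Rps24 (-0.056), Rps25 (0.066), Rps27l (0.43) and Rps6 (0.22) in Sf v B6, and Rplp2 (-0.01), Rps15 (-0.0092) and Rps6 (0.15) in Sf.Il2-/- v B6. After centring they were Rpl38 (0.068), Rplp0 (0.074), Rplp2 (0.041), Rps25 (0.0092) and Rps4x (0.0404) in Sf.Il2-/- v Sf, and Rpl19 (-0.0006) and Rps24 (-0.0063) in Sf v B6.

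With a gene's probe sets averaged they were Rpl41 (-0.30), Rps4x (0.72), Rps6 (-0.024) and Rpsa (0.032) in Sf.Il2-/- v Sf, Rpl22 (-0.17), Rpl41 (-0.84), Rps24 (-0.36), Rps4x (-0.39) and Rps6 (0.0065) in Sf v B6, and Rpl22 (-0.082) and Rpl41 (-1.14) in Sf.Il2-/- v B6. Without _x_at probe sets they were Rpl41 (-0.66) in Sf.Il2-/- v Sf, Rpl41 (-1.87) and Rps24 (-0.96) in Sf v B6 and Rpl41 (-2.53) in Sf.Il2-/- v B6. With shared probe sets, a setting chosen after seeing the data, they were Rpl14 (-0.021), Rps2 (-0.011), Rps25 (0.088) and Rps6 (-0.073) in Sf.Il2-/- v Sf, Rpl12 (0.092), Rps27 (0.073) and Rps6 (0.17) in Sf v B6, and Rpl14 (-0.10), Rps25 (0.018), Rps27 (0.035) and Rps6 (0.093) in Sf.Il2-/- v B6.

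Within array set 1 they were Rpl22 (-0.0068), Rpl27a (0.29), Rpl41 (-0.021), Rps19 (-0.001) and Rps25 (0.0095) in Sf.Il2-/- v Sf. Within array set 2 they were Rpl38 (0.084), Rpl39l (-0.081), Rplp2 (0.0075), Rps2 (-0.026) and Rps4x (0.036) in Sf.Il2-/- v Sf. Within the same set they were also Rpl14 (0.14) and Rps27l (0.39) in Sf v B6. With the array set as a block they were Rpl14 (0.13) and Rps27l (0.34) in Sf v B6, and with the replicate block Rpl14 (-0.011) and Rps27l (-0.077) in Sf.Il2-/- v B6. Without Sf 1 and Sf.Il2-/- 2 it was Rpl41 (-0.011) in Sf.Il2-/- v Sf.

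Over the settings that leave out 1 replicate, these values crossed 0 in Sf.Il2-/- v Sf: Rpl22 (-0.032 to 0.065), Rpl27a (-0.70 to 0.27), Rpl38 (-0.050 to 0.0071), Rpl39l (-0.21 to 0.17), Rpl41 (-0.077 to 0.057), Rplp0 (-0.038 to 0.012), Rps19 (-0.0022 to 0.047) and Rps27l (-0.034 to 0.60). They crossed it in Sf v B6 for Rps27l (-0.57 to 0.071) and in Sf.Il2-/- v B6 for Rpl14 (-0.020 to 0.17) and Rps27l (-0.23 to 0.19). The precision is limited by 3 arrays a mutant group and 1 B6 array, and the bright probe sets lie close under the top of the scale.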
